A study of Homo sapiens with 6 samples.

Results

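The regions described here were stretches of chromatin that carried a SUMO-2/3 peak in mock-treated and in daunorubicin (DNR)-treated HL-60 cells but no peak after cytosine arabinoside (Ara-C). HL-60 is a human acute myeloid leukaemia cell line. Cells received H2O (mock), 2 µM Ara-C or 1 µM DNR for 2 h, and chromatin was immunoprecipitated with 2 µg of SUMO2/3 antibody per reaction. The 3 biological replicates of a condition were pooled for sequencing, which left 1 library and 1 peak list for each condition and no replicate against which a difference could be checked. The 3 input libraries were not analysed here. Touching peaks of the 3 lists were merged, and the regions were chosen by presence or absence of a called peak in each list, outside a dense 10 Mb part of chromosome 8 and the first and last 1 Mb of each chromosome. Of 134090 merged regions, 670 (95% Poisson interval 620 to 723) met the rule. They made up 0.5% of all merged regions, 1.59% of those with a mock peak and 2.13% of those with a DNR peak. Presence in mock and DNR and absence after Ara-C are therefore the definition of the set and not a finding. A missing Ara-C peak means that no run of signal passed the fixed calling threshold in that library, which is weaker than an absence of SUMO.

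SUMO-2 and SUMO-3 are small ubiquitin-related proteins that are attached to lysines of other proteins by a cascade of activating, conjugating and ligating enzymes and removed by dedicated proteases. Many of their targets are transcription factors, chromatin regulators and architectural proteins, so that immunoprecipitation of SUMO recovers promoters, distal elements and binding sites of such proteins. Ara-C is a nucleoside analogue that is incorporated into DNA during replication. DNR is an anthracycline that intercalates into DNA and poisons topoisomerase II. CTCF is a zinc finger protein that binds a long conserved motif and, with cohesin, delimits chromatin loops.

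Sequences of 3 kinds of region are shown because the results below turn on them. Each run holds the bases shared by the mock and the DNR peak, on the plus strand of hg19, taken from the GRCh37 primary assembly. The first holds an exact match to the CTCF core consensus, with the match in capitals, and lies in an intron of RNF215, which encodes a RING finger protein.
RNF215 intron, chr22:30787051-30787300: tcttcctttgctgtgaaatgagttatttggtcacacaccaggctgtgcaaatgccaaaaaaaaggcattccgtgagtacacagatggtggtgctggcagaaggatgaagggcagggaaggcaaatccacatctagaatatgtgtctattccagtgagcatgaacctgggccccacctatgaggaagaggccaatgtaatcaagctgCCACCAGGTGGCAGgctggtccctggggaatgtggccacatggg

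A pair of runs comes from promoters, with CpG dinucleotides in capitals. The first comes from a region centred 444 bp upstream of ZDHHC12, which encodes a palmitoyltransferase. The other lies between EMC1, which encodes a subunit of the endoplasmic reticulum membrane complex, and MRTO4, which encodes a ribosome assembly factor. The runs hold 14 and 21 CpG dinucleotides respectively.
ZDHHC12 promoter, chr9:131486701-131486950: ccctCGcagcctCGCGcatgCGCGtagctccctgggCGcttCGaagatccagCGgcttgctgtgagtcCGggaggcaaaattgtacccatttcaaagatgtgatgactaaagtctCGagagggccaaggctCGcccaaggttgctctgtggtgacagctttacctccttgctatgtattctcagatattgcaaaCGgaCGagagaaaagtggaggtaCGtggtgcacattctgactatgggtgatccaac
EMC1 and MRTO4 promoter, chr1:19578101-19578300: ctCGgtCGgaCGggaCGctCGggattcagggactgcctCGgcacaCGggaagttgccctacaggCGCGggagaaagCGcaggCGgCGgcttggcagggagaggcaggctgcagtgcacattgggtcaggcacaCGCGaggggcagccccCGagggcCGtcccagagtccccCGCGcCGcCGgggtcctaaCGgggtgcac

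Another pair holds the longest perfect tandem repeats within the shared bases, with the repeat in capitals. The first is a pentamer repeat of the kind found in pericentromeric satellite DNA, and the other is a dinucleotide repeat in an intron of PIK3AP1, which encodes an adaptor of phosphoinositide 3-kinase. The repeats measured 40 and 39 bp.
Intergenic satellite region, chr2:89879101-89879350: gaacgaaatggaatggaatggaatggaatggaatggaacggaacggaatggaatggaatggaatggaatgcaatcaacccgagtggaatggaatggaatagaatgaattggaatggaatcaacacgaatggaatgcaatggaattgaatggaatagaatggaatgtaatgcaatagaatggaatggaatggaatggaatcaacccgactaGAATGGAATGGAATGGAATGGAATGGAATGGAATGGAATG
PIK3AP1 intron, chr10:98400751-98400950: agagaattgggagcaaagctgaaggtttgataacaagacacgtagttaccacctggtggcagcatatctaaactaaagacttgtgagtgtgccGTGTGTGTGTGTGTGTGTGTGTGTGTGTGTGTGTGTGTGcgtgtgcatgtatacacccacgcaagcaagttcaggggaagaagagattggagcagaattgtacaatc

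The overlap of mock and DNR peaks in these regions was short. The merged regions had a median width of 300 bp, with quartiles of 250 and 350 bp and a range of 150 to 1850 bp. The grid of the calling was 50 bp. In 664 regions, 1 mock peak met 1 DNR peak, and 6 regions held 3 peaks. The peaks only touched, with no base in common, in 124 regions (18.5%, Wilson interval 15.7 to 21.6). They shared 50 bp in 110 regions, 100 bp in 155, 150 bp in 199 and 200 bp or more in 82. The 2 peaks had the same start and end in 31 regions. The mock peak was the longer in 221 regions, the DNR peak in 221, and their lengths were equal in 228. Regions with more mock than DNR bases were thus as frequent as the opposite. In all, the regions covered 213 kb, of which 68.7 kb were shared by both peaks.

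Peaks in these regions were somewhat wider than the lists they came from. Of the 673 mock peaks in them, 14.1% (11.7 to 17.0) were 300 bp or longer, against 9.28% of all mock peaks outside the left-out parts. Of the 673 DNR peaks, 11.1% (8.98 to 13.7) were that long, against 4.33% of all DNR peaks. Widths come from the same calls as the rule and are given as a description. Of the 1371 regions with both a mock and a DNR peak, 670 (48.9%) lacked an Ara-C peak and 701 held one. The share without an Ara-C peak was 75% (70.5 to 79.0) where the widest mock peak was at most 150 bp, 60.2% (54.8 to 65.4) at 200 bp, 40.8% (34.5 to 47.6) at 250 bp and 21.4% (17.8 to 25.4) at 300 bp or more. Beside the regions of all 3 lists, these regions thus had the narrower mock peaks.

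To measure how often a mock and a DNR peak would meet by local density alone, all DNR peaks were moved along the chromosome by 10 to 100 kb in either direction, in 20 fixed shifts, and the rule was applied again. A mean of 293 regions met it after moving, with a range of 255 to 319. The 670 regions at the deposited positions were 2.29 times that mean (interval 2.12 to 2.47, from the counting error of the 670 alone). The moved number corresponded to 43.7% of the observed number. With shifts of 2 to 10 kb the ratio was 2.02. Over the shifts of 10 to 100 kb the moved number lay between 272 at 70 kb and 318 at 10 kb. With the DNR list moved in the same way, regions with Ara-C and DNR peaks only numbered 1015, 2.09 times the moved mean. For regions with mock and Ara-C peaks only the Ara-C list was moved, and their 6242 were 7.95 times the moved mean. The ratio depends on the list that is moved, and it was 1.96 for the mock and DNR regions when the mock list was moved.

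**Figure D1:**
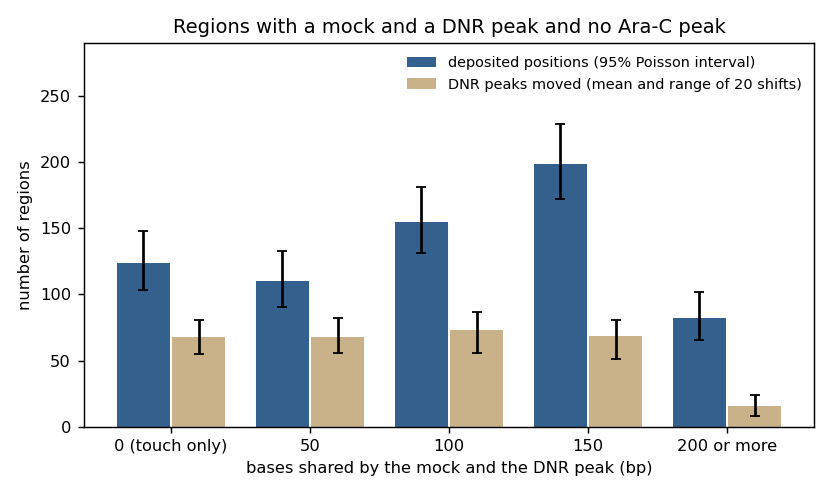
Number of regions with a mock and a DNR peak and no Ara-C peak (vertical axis) by the bases that the mock and DNR peaks share (horizontal axis, bp). Blue bars are the deposited positions with 95% Poisson intervals and sand bars the mean over 20 shifts of the DNR list with its range; the bars differ least at 50 bp shared and most, in ratio, at 200 bp or more.

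The ratio to the moved mean depended on how much the peaks shared. Regions whose peaks only touched were 1.83 times (1.52 to 2.19) the moved mean of 67.7, and those sharing 50 bp were 1.62 times (1.33 to 1.95) the moved mean of 68. The ratio was 2.11 at 100 bp, 2.91 at 150 bp and 5.32 (4.23 to 6.61) at 200 bp or more, where 82 regions stood against a moved mean of 15.4. In the same way it was 1.94 (1.72 to 2.17) for regions with at most 150 mock bases and 4.10 (3.33 to 5.00) for those with 300 or more. When only peaks of at least 200 bp were used from all lists, 262 regions met the rule and the ratio was 3.39. When peaks up to 500 bp apart were merged, the set grew to 1212 regions and the ratio was 1.42.

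Regions were placed in gene regions by their midpoint. Promoters were taken as the 2 kb before the transcription start sites (TSS) of protein-coding genes. Of the 670 regions, 343 (51.2%) were intronic, 221 (33.0%) intergenic, 57 (8.51%) exonic and 49 (7.31%, 5.58 to 9.54) at promoters. In the sequenced genome, introns made up 55.6% of bases, intergenic sequence 37.5%, exons 5.06% and promoters 1.90%. The promoter share was lower than that of regions with mock and Ara-C peaks only, which was 23.6%, by a difference of -16.3 points (-18.3 to -13.8). It was lower by -11.7 points (-15.2 to -8.14) than that of regions found in all 3 lists, which stood at 133 of 701 regions. It differed from that of regions with Ara-C and DNR peaks only (5.71%) by 1.60 points, with an interval from -0.76 to 4.16. The difference from mock-alone regions (6.19%) was 1.13 points, with an interval from -0.63 to 3.36. It was 2.14 points (0.39 to 4.37) above that of Ara-C-alone regions (5.17%) and 4.39 points (2.64 to 6.62) above that of DNR-alone regions (2.92%). These intervals cover counting error only, since regions of 1 library are not replicates.

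**Figure D2:**
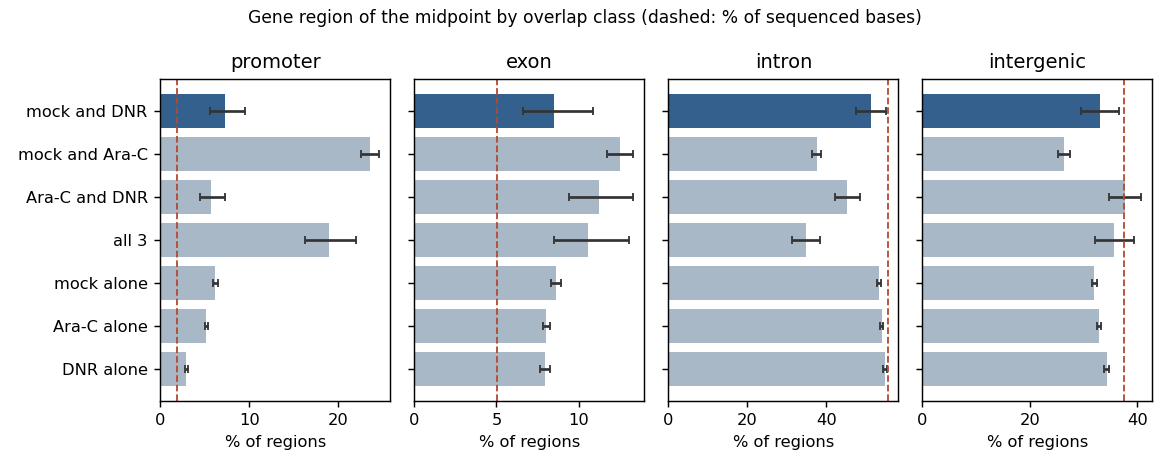
Share of regions (horizontal axes, %) whose midpoint lies in a promoter, exon, intron or intergenic sequence, for the 7 overlap classes (vertical axis), with 95% Wilson intervals; the dashed line is the share of sequenced bases. The mock and DNR regions in dark blue show a promoter share of 7.31%, near the 6.19% of mock-alone regions and below the 23.6% of mock and Ara-C regions.

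The lower promoter share than in mock and Ara-C regions was seen at each of the 3 widths of the mock peak that were compared. Among regions with a mock peak of at most 150 bp, 4.76% (2.86 to 7.83) of mock and DNR regions were at promoters, against 18.3% (16.4 to 20.4) of mock and Ara-C regions. At 200 or 250 bp the shares were 7.47% (4.94 to 11.2) and 22.4% (20.9 to 23.9). Among those with a mock peak of 300 bp or more, they were 14.7% (8.99 to 23.2) and 29.0% (27.0 to 31.0). In regions of all 3 lists the shares were 10.2% (5.64 to 17.8), 15.0% (11.1 to 19.9) and 24.4% (20.1 to 29.1). The differences of the mock and DNR regions from them were -5.44 points (-13.2 to 0.061), -7.49 points (-13.0 to -2.15) and -9.62 points (-17.1 to -0.14). Relative to moved DNR peaks, the 49 promoter regions were 3.07 times (2.27 to 4.06) the mean of 16.0, the 343 intronic regions 2.22 times (1.99 to 2.46) and the 221 intergenic regions 2.26 times (1.98 to 2.58) theirs. When promoters of all annotated transcripts were counted, non-coding genes included, the promoter share was 16.6%.

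The 49 promoter regions lay in the windows of 53 protein-coding genes, 0.268% of the 19785 in the annotation. Their midpoints lay at a median of 446 bp from the nearest TSS, and 14 lay within 250 bp. Regions with mock and Ara-C peaks only reached 1600 such genes, and regions in all 3 lists reached 152. ZDHHC12, whose sequence is shown above, had the longest overlap, with 250 bp shared by a 300 bp mock peak and a 350 bp DNR peak at chr9:131486651-131487050. The shared promoter of EMC1 and MRTO4 at chr1:19578051-19578450 had a 400 bp mock peak that contained a 200 bp DNR peak, and the nearest Ara-C peak was 8350 bp away.

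At KLF4, which encodes a zinc finger transcription factor of monocyte differentiation, the mock and the DNR peak coincided exactly at chr9:110252501-110252700. The region lay 550 bp upstream of a TSS, its GC content was 70.5%, and an Ara-C peak lay 1100 bp away. CDC42EP2, which encodes an effector of the GTPase CDC42, had 250 bp peaks in both lists that shared 200 bp, with an Ara-C peak only 100 bp away. BRAP, which encodes a BRCA1-associated ubiquitin ligase, had a 250 bp mock peak and a 200 bp DNR peak, and the nearest Ara-C peak was 25500 bp away. At CCDC88C, which encodes a Wnt signalling regulator, a 650 bp mock peak enclosed a 200 bp DNR peak, and the nearest Ara-C peak was 21150 bp away. The next Ara-C peak thus ranged from 100 to 25500 bp at promoters of this group.

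The cut at 20 genes fell among promoters that shared 150 bp, and these ties were ordered by chromosome and start. The remaining promoters of the 20 named genes shared 150 bp between the peaks. Those with the wider peak in mock included SPOCD1, CRABP2, which encodes a retinoic acid binding protein, DNAJB2, which encodes a co-chaperone, and the divergent genes C8G and FBXW5. At POLD4, which encodes the small subunit of DNA polymerase delta, the mock peak was 250 bp and the DNR peak 200 bp. Those with the wider peak under DNR were FYB2, SLC9A4, which encodes a sodium/proton exchanger, TNNI2, which encodes a fast-muscle troponin, RAB27A, which encodes a GTPase of granule secretion, SLC25A39, which encodes a mitochondrial carrier, and TNFRSF11A, which encodes the receptor RANK. TNNI2 had a 150 bp mock peak and a 400 bp DNR peak, and TNFRSF11A a 150 bp mock peak and a 450 bp DNR peak. At C10orf143 both peaks were 200 bp long. Of the 49 promoter regions, only that of CRABP2 held the CTCF core.

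In the 5 widest regions the DNR peak was much longer than the mock peak. The widest, at chr6:34039251-34041100 in an intron of GRM4, which encodes a metabotropic glutamate receptor, held an 1850 bp DNR peak and a 150 bp mock peak. An intergenic region nearest to CD300LB, which encodes a myeloid activating receptor, spanned chr17:72510001-72511250 with 1150 DNR bases and 150 mock bases. In an intron of CAMTA1, which encodes a calmodulin-binding transcription activator, a 1150 bp DNR peak enclosed a 350 bp mock peak at chr1:7163301-7164450. A region of 1050 bp in the non-coding gene LINC00842, at chr10:47058601-47059650, held a 950 bp DNR peak and a 300 bp mock peak. The last, also of 1050 bp at chr19:33740601-33741650 and nearest to SLC7A10, which encodes an amino acid transporter, held 800 DNR bases in 2 peaks that only touched a 250 bp mock peak. The nearest Ara-C peak was 3700 bp or farther from each of these 5 regions.

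Few genes of 7 lists of pathways that bear on the cells or the drugs had such a region, as was the case for coding genes at large. Of the 7 lists with 133 genes in all, 1 gene had a region at its promoter, beside 0.268% of all coding genes. A region inside the gene body was found in 2 of the 133 genes (1.5%), beside 1.56% of all coding genes. Among 22 myeloid transcription factor genes the region was that of KLF4, which counted under both because it lay upstream of a TSS and within the annotated gene. Among 22 NF-kB and inflammatory genes it was an intronic region of NFKB1, which encodes the p105 precursor of NF-kB, where a 200 bp mock peak and a 150 bp DNR peak touched without sharing a base at chr4:103437951-103438300. The other 5 lists, of immediate-early genes, DNA damage and p53 target genes, SUMO pathway genes, CTCF and cohesin genes, and topoisomerase and nucleoside metabolism genes, held 0 of 89 genes, which allows a share of up to 3.37%.

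The regions were slightly richer in GC than their surroundings, as called regions were in general. Their median GC content was 47.2% (95% interval of the median 46.4 to 48.0), with quartiles of 41.5 and 54.8%. Equally wide windows placed 2000 bp to the left and right had a median of 44%, and 436 of the 670 regions (65.1%) exceeded their own windows, against 61.8% of all 134090 merged regions. The median difference was 3.00 points (2.25 to 3.86), beside 2.75 points in mock-alone, 2.67 in Ara-C-alone, 2.33 in DNR-alone and 3.17 in Ara-C and DNR regions. Regions with mock and Ara-C peaks only had a median GC content of 54.0% and exceeded their windows by 7.11 points, and regions in all 3 lists had 54.5% and 5.25 points. Regions with Ara-C and DNR peaks only, at 46.7%, were close to the mock and DNR regions. Mock-alone and DNR-alone regions were lower, at 44 and 44.7%. Part of the spread followed the gene region: promoters in the set had a median of 57.8% (54.0 to 61.6), exons 53.3%, introns 46.5% and intergenic regions 46.0%.

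CpG-rich sequence was uncommon among them. A GC content of at least 55% with an observed to expected CpG ratio of at least 0.6 was found in 44 regions (6.57%, 4.93 to 8.70). The share was 25.5% (24.4 to 26.6) in regions with mock and Ara-C peaks only and 22.7% (19.7 to 25.9) in those of all 3 lists. It was 5.91% with Ara-C and DNR peaks only, 4.80% in mock-alone and 2.27% in DNR-alone regions.

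An exact match to the CTCF core was found in 41 of the 670 regions (6.12%, 4.54 to 8.20), as in the RNF215 sequence above. In the windows 2000 bp away it was found in 1 of 1340 (0.0746%, 0.0132 to 0.422). Because the classes differ in width, the central 200 bp of each region were also searched. There the core was in 5.22% (3.78 to 7.18) of mock and DNR regions, 7.96% (7.32 to 8.66) of mock and Ara-C regions, 3.65% (2.66 to 4.98) of Ara-C and DNR regions and 12.1% (9.91 to 14.8) of regions in all 3 lists. Mock-alone regions had 1.31% (1.19 to 1.43) and DNR-alone regions 0.117% (0.0839 to 0.164). The share in mock and DNR regions was thus 3.92 points (2.47 to 5.88) above that of mock-alone regions and 5.11 points (3.66 to 7.06) above that of DNR-alone regions. These differences were not matched for the width of the peaks. The interval of the difference from Ara-C and DNR regions, -0.39 to 3.77 points, included 0. With 1 mismatch allowed, the share of whole regions with the core was 16.3%. No such share of the windows or of the other classes is given here to set beside it. With peaks of at least 200 bp the share with an exact match was 10.3%.

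**Figure D3:**
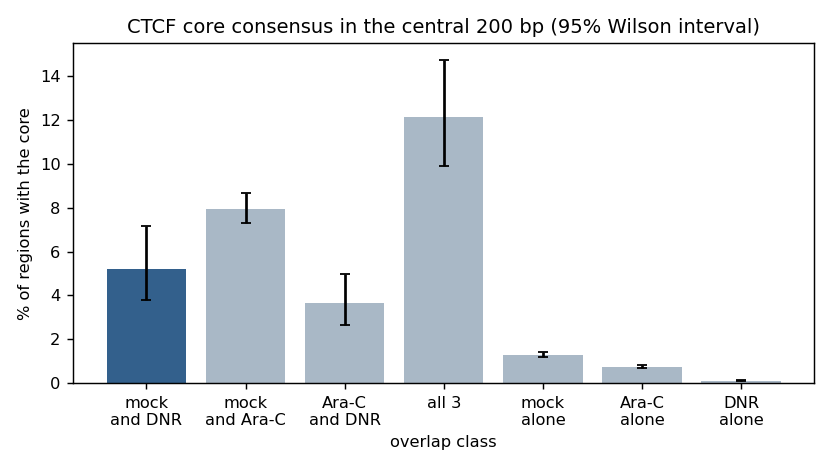
Share of regions (vertical axis, %) with an exact match to the CTCF core in their central 200 bp, for the 7 overlap classes (horizontal axis), with 95% Wilson intervals. Mock and DNR regions in dark blue stand at 5.22%, between the 1.31% of mock-alone regions and the 12.1% of regions in all 3 lists, and DNR-alone regions stand at 0.117%.

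The core went with longer overlap of the peaks. It was present in 30 of 281 regions (10.7%, 7.58 to 14.8) that shared 150 bp or more, in 9 of 265 (3.40%, 1.8 to 6.33) that shared 50 or 100 bp and in 2 of 124 (1.61%, 0.443 to 5.69) that only touched. In 27 of the 41 regions the match lay inside the shared bases. The match was on the plus strand in 19 and on the minus strand in 22. Of the 41, 22 were intronic, 12 intergenic, 6 exonic and 1 at a promoter. With the width of the mock peak, the core in the central 200 bp went from 1.36% (0.530 to 3.45) at up to 150 bp to 7.12% (4.65 to 10.7) at 200 or 250 bp and 11.6% (6.59 to 19.6) at 300 bp or more. In regions with mock and Ara-C peaks only it was 6.80%, 8.84% and 7.56% at the same widths. At up to 150 bp, the difference from mock and Ara-C regions was -5.44 points (-7.09 to -3.03), and at 300 bp or more it was 4.02 points, with an interval from -1.12 to 12.1. In regions of all 3 lists the shares were 7.14% (3.50 to 14), 16.9% (12.8 to 22.0) and 10.0% (7.30 to 13.6), and the differences of the mock and DNR regions from them were -5.78 points (-12.7 to -1.59), -9.81 points (-15.5 to -4.33) and 1.55 points (-4.60 to 9.98). In mock-alone regions the shares were 0.743%, 1.90% and 4.04%. Mock and DNR regions exceeded these by 5.22 points (2.75 to 8.85) at 200 or 250 bp and 7.54 points (2.42 to 15.6) at 300 bp or more, while at up to 150 bp the difference was 0.62 points, with an interval from -0.22 to 2.71.

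The GC content differed with the shared bases as well. Regions whose peaks only touched had a median GC content of 45.7% (44.3 to 46.7), those sharing 50 or 100 bp 46.3% and those sharing 150 bp or more 50% (48.0 to 51.1). The promoter share was 5.65%, 6.79% and 8.54% in these groups, with overlapping intervals.

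Perfect tandem repeats with a unit of 1 to 6 bases and a length of at least 24 bp were found in 21 regions (3.13%, 2.06 to 4.74), as in the chromosome 2 and PIK3AP1 sequences above. The share was 4.42% in regions of all 3 lists, 4.33% with Ara-C and DNR peaks only, 1.07% with mock and Ara-C peaks only, 0.528% in mock-alone and 0.789% in DNR-alone regions. In 12 of the 21 the unit was 5 bases long, and the longest repeat measured 60 bp, at chr4:49120151-49120750. At least 2 consecutive GGAAT units, the pentamer of human satellites, on either strand, were found in 19 regions (2.84%, 1.82 to 4.39), against 0.320% of regions with mock and Ara-C peaks only, 0.208% of mock-alone and 0.383% of DNR-alone regions, and 3.28% of regions in all 3 lists. The pentamer share of regions with Ara-C and DNR peaks only is not given here. Whole regions were searched for both kinds of repeat and were not matched for width. The median width was 300 bp in mock and DNR regions, against 150 bp in mock-alone and DNR-alone regions. Of the 19 mock and DNR regions with the pentamer, 15 lay within 2 Mb of a run of at least 1 Mb of unknown bases. Such gaps stand for centromeres and other heterochromatin in the assembly.

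In all, 43 regions (6.42%, 4.80 to 8.53) lay within 2 Mb of such a gap, beside a mean of 12.5 after moving DNR peaks. This moved number depended more on the length of the shift than that over the whole genome. It was 21 and 27 regions at 10 kb in either direction and 6 and 6 at 100 kb. The share was 2.31% with mock and Ara-C peaks only, 2.19% in mock-alone and 2.63% in DNR-alone regions, 10.4% (8.71 to 12.5) with Ara-C and DNR peaks only and 8.56% (6.71 to 10.9) in regions of all 3 lists. None of the 43 was at a promoter, and their median GC content was 41.1%. Their nearest Ara-C peak lay at a median of 750 bp, against 5850 bp for the other 627. Without them, the promoter share was 7.81% and the core share 6.54%. As none of them was at a promoter, leaving them out could only raise the promoter share. Reads from repeated sequence can be placed uniquely only in part, and the part of this in the calls was not tested.

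Absence of an Ara-C peak did not mean remoteness from one. The distance to the nearest Ara-C peak had a median of 5300 bp (interval of the median 4600 to 6100), quartiles of 1700 and 12988 bp and a range of 50 to 132300 bp. Within 500 bp lay 66 regions (9.85%), within 1 kb 122 (18.2%) and within 10 kb 457 (68.2%). Mock-alone regions had a median of 8150 bp (8000 to 8300), with 12.1% within 1 kb, and DNR-alone regions 9300 bp (9100 to 9450), with 9.49% within 1 kb. The mock and DNR regions themselves, moved by 10 to 100 kb, had a median of 7750 bp over the positions that did not touch an Ara-C peak, with 10.2% within 1 kb. They thus lay closer to Ara-C peaks than regions of either list alone and than their own surroundings. Without the 43 regions beside assembly gaps the median was 5850 bp. With peaks of at least 200 bp in all lists it was 9875 bp, and with no part of the genome left out it was 3350 bp. Medians of mock-alone and DNR-alone regions under these settings are not given here. The values above are thus no measure for them.

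**Figure D4:**
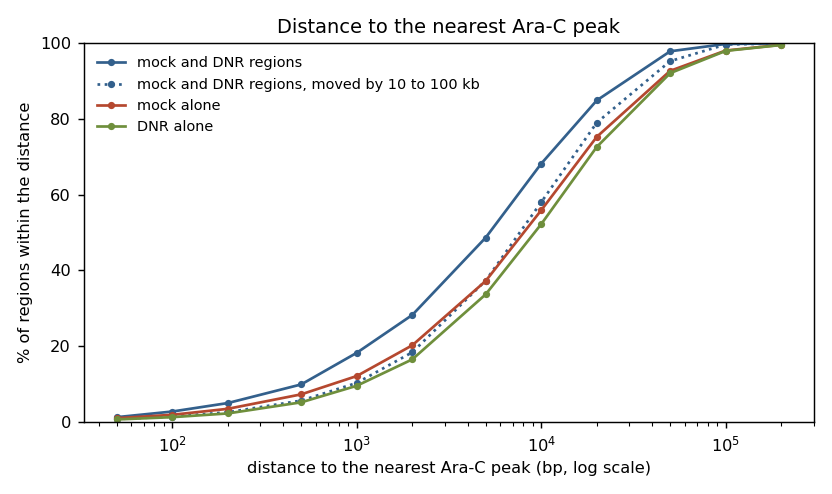
Share of regions (vertical axis, %) with an Ara-C peak within a given distance (horizontal axis, bp, log scale), for mock and DNR regions, the same regions moved by 10 to 100 kb, mock-alone and DNR-alone regions. The curve of the mock and DNR regions lies above the other curves up to 50 kb, with 18.2% within 1 kb against 10.2% after moving.

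The rule puts a sharp edge on a continuous scale. Just inside it, 8 regions had an Ara-C peak 50 bp away and 10 had it 100 bp away, the smallest steps of the grid. Just outside it, 16 of the 701 regions in all 3 lists held an Ara-C peak that only touched the mock and DNR peaks, and in 26 it shared 50 bp with them. Regions with an Ara-C peak within 500 bp were at promoters in 10.6% (5.23 to 20.3) of cases and held the core in 4.55% (1.56 to 12.5), against 6.95% (5.19 to 9.27) and 6.29% (4.62 to 8.52) of the others, with overlapping intervals. Promoter regions had a median distance of 3950 bp, exonic regions 4600 bp, intronic regions 5350 bp and intergenic regions 6300 bp.

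The regions were spread unevenly over the chromosomes. Chromosome 1 held 98, chromosome 13 held 72, chromosome 6 held 63 and chromosome 18 held 60, together 43.7% of the set on 19.8% of the sequenced bases. The same chromosomes held 37.8% of all regions with a mock peak and 38.7% of those with a DNR peak. Per sequenced Mb, outside the left-out parts, chromosome 22 held 0.882 regions, chromosome 18 held 0.825 and chromosome 13 held 0.759, beside a median of 0.272 over the 22 autosomes. Chromosomes 8 and X held 1 region each. The mock list was distributed alike, with 39.4 regions with a mock peak per Mb on chromosome 13, 37.3 on chromosome 18, 36.8 on chromosome 22, 2.30 on chromosome 8 and 2.10 on chromosome X. Expressed as a share of the regions with a mock peak, the set made up 2.40% (1.69 to 3.41) on chromosome 22, 2.21% (1.72 to 2.84) on chromosome 18, 1.93% (1.53 to 2.42) on chromosome 13, 1.87% (1.54 to 2.28) on chromosome 1, 1.46% (1.15 to 1.87) on chromosome 6, 2.78% (1.95 to 3.94) on chromosome 19, 0.6% (0.316 to 1.14) on chromosome 7, 0.332% (0.0587 to 1.86) on chromosome 8 and 0.318% (0.0562 to 1.78) on chromosome X. Outside chromosome Y, which held 2 regions, both within 2 Mb of an assembly gap of at least 1 Mb, the share thus varied less than the density. The DNA copy number of the cells was not measured in the lists, and its part in these densities was not tested.

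**Figure D5:**
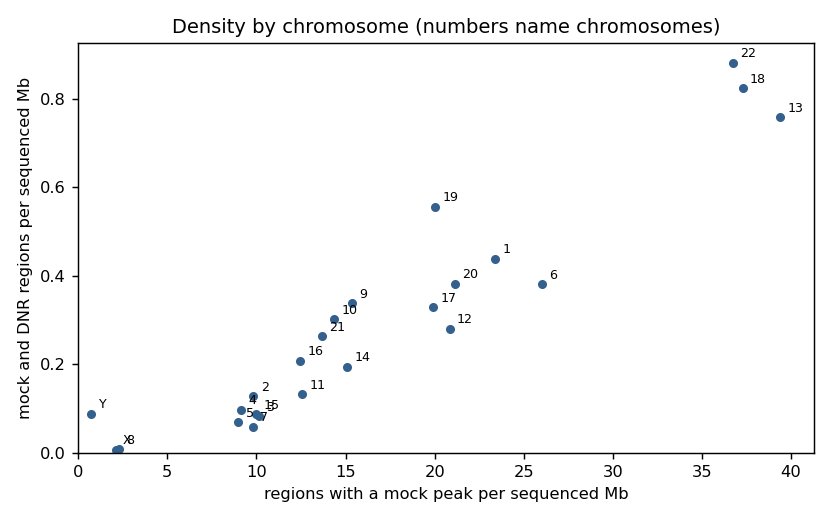
Mock and DNR regions per sequenced Mb (vertical axis) against regions with a mock peak per sequenced Mb (horizontal axis), 1 point for each chromosome, named beside it. Chromosomes 13, 18 and 22 stand highest on both axes, at 0.759 to 0.882 mock and DNR regions per Mb, and chromosomes 8 and X lowest on the vertical axis.

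Most regions stood alone. Another region of the set lay within 10 kb of 28 regions (4.18%, 2.91 to 5.97) and within 100 kb of 140 (20.9%). The median distance from a region's midpoint to the nearest coding TSS was 31335 bp, and 180 regions (26.9%) lay within 10 kb of a coding TSS. No annotated gene or promoter covered the midpoint of 213 regions (31.8%).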

How the data were processed

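SUMO-2/3 ChIP-seq had been performed in HL-60 cells with 1 pooled library per condition. The authors aligned reads to hg19 with CASAVA 1.8.2 and used Pasha to keep uniquely placed reads, remove piled-up reads (threshold 5 in mock, 4 in treated cells), extend reads (210 bp, DNR 220 bp), fill 50 bp bins, scale and subtract the input. Their peak calls were runs longer than 100 bp whose value passed 32, bridging gaps up to 100 bp. The deposited lists hold positions only, 44265 for mock, 72279 for Ara-C and 33355 for DNR, so that depth and peak height are unknown and depth cannot be told apart from treatment. Positions on chromosomes 1 to 22, X and Y lie within the lengths of GRCh37, the assembly of hg19. The mitochondrial chromosome was left out.

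Touching peaks were merged, and regions in the dense part of chromosome 8 (125 to 135 Mb) or in the outer 1 Mb of a chromosome were removed. Before this, 851 regions held mock and DNR peaks only, a number that bedtools 2.31.1 also gave. Genes came from GENCODE 44 lifted to GRCh37. The midpoint placed a region in the order promoter (2 kb upstream to TSS, basic coding transcripts), exon, intron and intergenic. The CTCF core was searched on both strands. Shares carry 95% Wilson intervals, numbers exact Poisson intervals, differences Newcombe intervals and medians binomial order-statistic intervals, all for counting error only. With 1 library per condition there was no test and no p-value. Merging, distances and motif searches were tested on simulated data. The regions, gene lists and measures were chosen with earlier results of these data known.

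Named genes were the 20 coding genes whose promoter regions shared most bases, the 5 widest regions, and genes of the 7 lists. Ties in shared bases were ordered by chromosome and start, and further genes with 150 bp shared were left unnamed by this order. Sequences printed were chosen as the 2 with most shared bases that held the core, of which 1 is not reported here, the 2 promoter regions and the 2 with the longest tandem repeat within the shared bases. Alternatives covered merging, widths, distance from Ara-C peaks, shifts, promoter windows, GC windows and motif mismatches. Leaving out regions near large assembly gaps was added after seeing the data. Scripts ran in Python 3.11.15 (scipy 1.17.1, pandas 2.3.3, numpy 2.4.6).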

Additional observations from a re-analysis of the deposited data

Results flagged for a closer look

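Signal was present in parts of the genome that the comparisons left out. In the dense part of chromosome 8, 156 further regions held a mock and a DNR peak and no Ara-C peak. In the first or last 1 Mb of the chromosomes there were 25 more.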

How the results depend on the processing

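Each of 7 results was computed under 7 to 10 other settings, out of 17 in all, giving 59 values, of which 31 stayed within the interval of the reported value (for the number of regions, within 1.5 times it) and 28 did not. The reported values were 670 regions, 2.29 times the moved mean, a promoter share of 7.31%, a median GC content of 47.2%, a core share of 6.12%, a median distance to Ara-C of 5300 bp and a median width of 300 bp. Requiring 1 shared base for merging gave a width of 250 bp. Merging peaks within 500 bp gave 1212 regions, 1.42 times the moved mean, GC content 45.7%, core share 4.04%, distance 6700 bp and width 450 bp. Requiring no Ara-C peak within 500 bp gave a distance of 6450 bp. Requiring mock and DNR peaks to share 50% of the shorter gave 427 regions, 2.73 times the moved mean, GC content 48.5% and width 250 bp. Peaks of at least 200 bp gave 262 regions, 3.39 times the moved mean, promoter share 9.92%, GC content 49.5%, core share 10.3%, distance 9875 bp and width 350 bp. Leaving nothing out gave 2.00 times the moved mean, GC content 45.7% and distance 3350 bp. Moving the mock list instead gave 1.96 times, and shifts of 2 to 10 kb gave 2.02 times the moved mean. Promoters of all transcripts gave a share of 16.6%, GC over 1 kb gave 45.1%, 1 mismatch in the core gave 16.3%, and the shared bases had a median width of 100 bp. The cause of these shifts was not tested beyond the construction of each setting. The lists carry no depth, and a fixed threshold in libraries of unknown depth limits every absence of a peak. No paired analysis was possible because the 3 replicates of a condition were sequenced as 1 pool.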

Other observations

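Short words that several transcription factor families recognise were searched on both strands in the central 200 bp of each region, and in 1310 windows of 200 bp that lay 2000 bp away from the regions of at least 200 bp. TGTGGT, the core bound by RUNX factors, was in 17.9% (Wilson interval 15.2 to 21.0) of mock and DNR regions and in 13.2% (11.5 to 15.1) of the windows. It was in 14.4% of mock-alone regions, a difference of 3.48 points (0.73 to 6.58), and in 16.3% of mock and Ara-C regions. CAGCTG, an E-box, was in 12.5% (10.2 to 15.3) of regions and 8.78% (7.36 to 10.4) of windows. CCAAT was in 21.2% (18.3 to 24.4) of regions and 26.3% (23.9 to 28.7) of windows. GGGCGG, the GC box, was in 6.27% of regions and 4.81% of windows. The difference was -13.1 points (-15.0 to -10.8) from mock and Ara-C regions and -11.6 points (-15.0 to -8.18) from regions of all 3 lists. It was -0.43 points (-2.77 to 2.08) from Ara-C and DNR regions and 1.40 points (-0.22 to 3.51) from mock-alone regions. It was 1.91 points (0.31 to 4.01) from Ara-C-alone and 2.86 points (1.25 to 4.97) from DNR-alone regions. CGGAAG, an ETS core, was in 4.93% of regions, a difference of -7.20 points (-8.83 to -5.14) from mock and Ara-C regions. TGANTCA, an AP-1 site, was in 6.42% of regions and 5.88% of windows. Base composition differs between these classes and was not matched, and its part in these shares was not tested.

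In all, 460 annotated genes covered the midpoint of a region, and 31 of them held 2 or more. The genes with most, named after their values were seen, were the non-coding gene LINC00842 and PDE4DIP, with 4 regions each, and KSR2, which encodes a kinase suppressor of Ras, with 3. The 4 regions in PDE4DIP also lay in the overlapping pseudogene PDE4DIPP2, so that the gene of origin is uncertain.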
